A study of Mus musculus with 12 samples.

Results

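The mRNAs of 10 transcription regulators were followed in mouse kidney cortex: Sox9, Sox4, Sox11, Pax2, Pax8, Cited1, Cited2, Runx1, Klf6 and Foxj1. They were chosen by gene symbol as developmental factors known from kidney repair, at a time when earlier results of these data were known. All 10 have a row among the 55487 gene rows of the count table. Bulk RNA-seq had been performed on 12 cortex libraries, 3 in each of 4 groups. Ctrl mice carried ALR flox/flox alleles without Cre (WT in the labels) and were sham operated. PT-KO mice carried the same alleles together with a Ggt1-Cre transgene that acts in proximal tubule cells (ALR knockdown in the labels) and were sham operated. Ctrl+I/R and PT-KO+I/R mice had 22 min of bilateral renal ischemia and 24 h of reperfusion. All mice were on a mixed C57BL/6 background, and those of the ischemia model were 6 to 8 weeks old. ALR is the protein of the Gfer gene, so all controls carry floxed alleles, and in PT-KO only cells with Cre can lose the gene.

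SOX and PAX proteins are DNA-binding factors that shape the embryonic nephron, and most adult tubule cells keep PAX proteins but silence SOX9. After ischemia, surviving tubule cells switch some of these genes on again while they spread, divide and restore the tubule. KLF6 is a zinc finger factor induced by injury, RUNX1 is a blood cell and injury factor, CITED proteins are coactivators without DNA binding of their own, and FOXJ1 drives the genes of motile cilia.

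Library totals ranged from 12165089 to 23123693 counts. The CPM values below are counts scaled to a common library size by TMM over the 12 libraries, which also corrects for composition. Gfer read 11.4 to 14.4 CPM in Ctrl, 9.97 to 17.1 in PT-KO, 15.3 to 20.0 in Ctrl+I/R and 21.6 to 22.8 in PT-KO+I/R. It was thus not lower in the libraries labelled knockdown, and a count over the whole gene cannot show a deletion of some exons in 1 cell type. Ctrl libraries 1 and 2 carried Xist (22402 and 19755 counts) and 0 counts of 4 Y-linked genes, whereas the other 10 libraries had at most 11 Xist counts and expressed the Y-linked genes. Each comparison with Ctrl therefore sets 2 Xist-positive libraries and 1 Xist-negative library against Xist-negative libraries, and sex and group cannot be fully told apart there. Both comparisons of PT-KO+I/R, with PT-KO and with Ctrl+I/R, are free of this mixture. The proximal tubule markers of the labelled tissue were all present, with none of 12 at 0 in any group and a summed level of 14809 to 49877 CPM.

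Per kb of exon, Cited2 had the highest level of the 10 in both sham groups, with 24.6 ± 2.60 RPKM in Ctrl and 19.7 ± 2.99 in PT-KO (SD, n = 3). Pax8 (9.58 ± 1.43 RPKM in Ctrl) and Klf6 (9.17 ± 1.60) followed, and the ranges of these 2 genes overlapped in Ctrl. Sox4 (4.51 ± 0.49 RPKM) and Pax2 (3.59 ± 0.67) overlapped as well. The other 5 genes had means below 1 RPKM in both sham groups, and no neighbours among these 5 were separated by their ranges in Ctrl or PT-KO. After I/R, Klf6 took the first place, with 38.5 ± 24.7 RPKM in injured control mice and 94.6 ± 20.7 RPKM in PT-KO+I/R. Its range overlapped that of Cited2, the next gene, in Ctrl+I/R but was clear of Pax8, the next gene, in PT-KO+I/R. Sox9 went from the 7th place in both sham groups to the 6th in Ctrl+I/R (2.88 ± 1.58 RPKM) and the 4th in PT-KO+I/R (11.1 ± 2.41), where it overlapped Sox4.

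**Figure D1:**
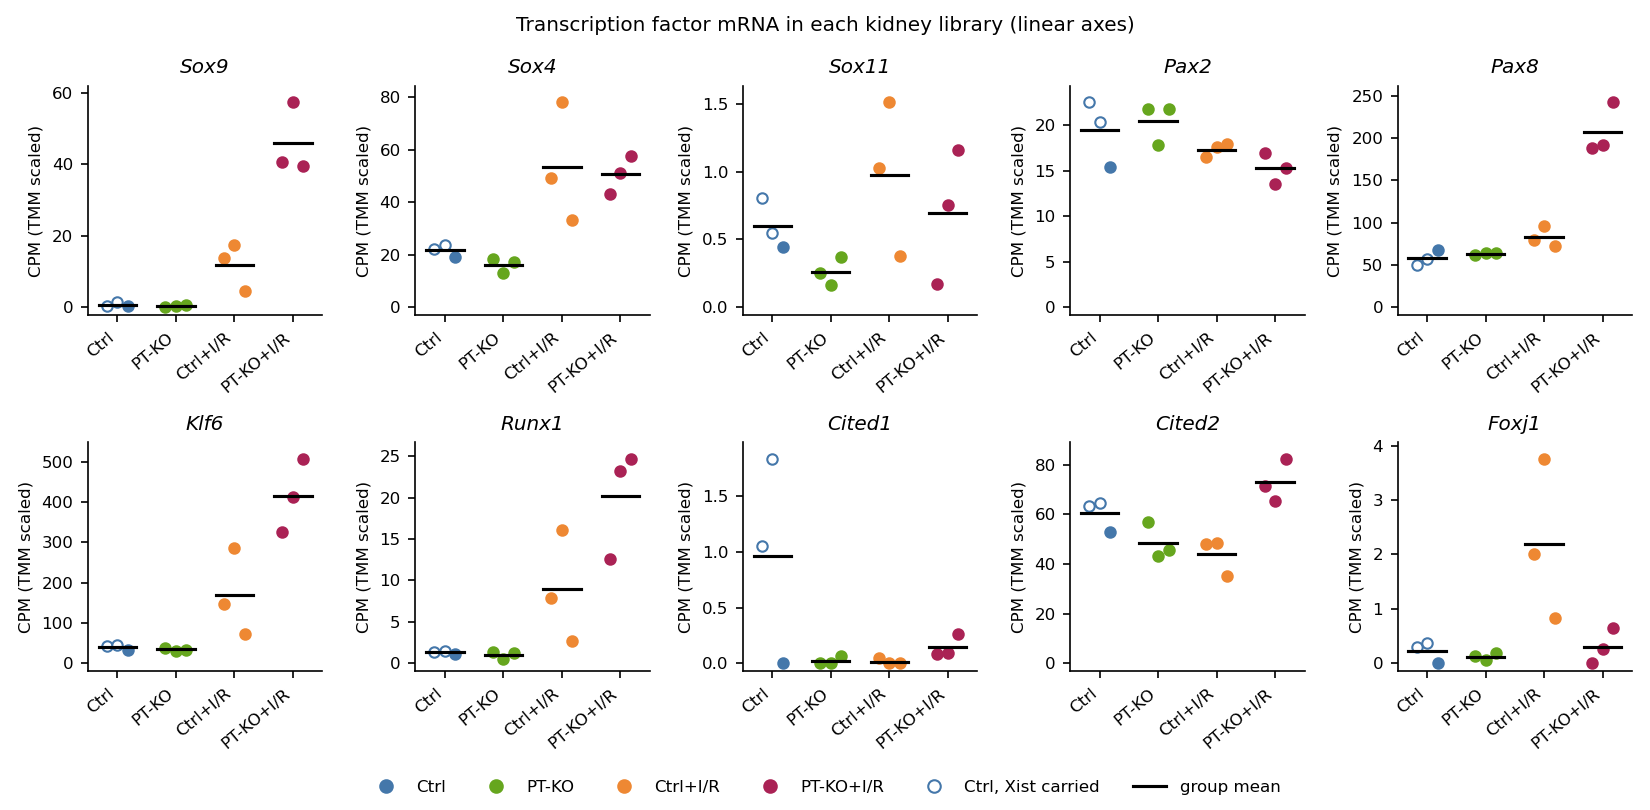
CPM of each of the 10 genes in the 12 libraries (1 point per library, linear axes, horizontal bars for the mean of 3 libraries, open circles for the Ctrl libraries that carried Xist). Sox9, Runx1 and Klf6 were low in both sham groups and highest in PT-KO+I/R, Pax8 and Cited2 were highest in PT-KO+I/R, Foxj1 was high only in Ctrl+I/R, and Cited1 was counted mainly in 2 Ctrl libraries.

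The promoter windows of Klf6, Pax8 and Cited2 are shown because their I/R responses were called different between genotypes. For Klf6 that call stood in only 4 of 12 fits without 1 library. Sox9 was also called but had no window, and Sox4 is shown because its response was not called different. RefSeq (GRCm38.p6) gave windows of 300 bases, from 250 before to 50 after a start, for 8 of the 10 genes. Capitals mark matches on either strand to 3 searched motifs, namely CCAAT, the GC box GGGCGG and the hypoxia response core ACGTG, which can match both strands at overlapping places.
Klf6 (chr13:5861239-5861538, plus strand): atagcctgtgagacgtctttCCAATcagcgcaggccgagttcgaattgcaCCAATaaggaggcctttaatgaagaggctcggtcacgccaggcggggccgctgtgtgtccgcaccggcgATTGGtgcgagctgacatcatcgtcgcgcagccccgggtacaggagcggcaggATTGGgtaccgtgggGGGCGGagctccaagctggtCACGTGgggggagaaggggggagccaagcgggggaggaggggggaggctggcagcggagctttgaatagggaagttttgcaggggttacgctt
Pax8 (chr2:24475550-24475849, minus strand): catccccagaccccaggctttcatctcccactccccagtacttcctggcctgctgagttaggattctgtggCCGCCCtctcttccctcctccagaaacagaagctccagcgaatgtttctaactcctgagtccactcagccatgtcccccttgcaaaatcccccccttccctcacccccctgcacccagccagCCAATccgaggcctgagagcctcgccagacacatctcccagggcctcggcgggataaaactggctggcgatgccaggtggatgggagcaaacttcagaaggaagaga
Cited2 (chr10:17722978-17723277, plus strand): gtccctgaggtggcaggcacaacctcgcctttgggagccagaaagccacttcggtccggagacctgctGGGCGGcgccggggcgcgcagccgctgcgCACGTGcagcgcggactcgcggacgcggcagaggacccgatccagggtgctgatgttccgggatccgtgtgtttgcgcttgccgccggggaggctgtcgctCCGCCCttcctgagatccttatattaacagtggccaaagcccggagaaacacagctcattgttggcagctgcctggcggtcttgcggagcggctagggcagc
Sox4 (chr13:28953650-28953949, minus strand): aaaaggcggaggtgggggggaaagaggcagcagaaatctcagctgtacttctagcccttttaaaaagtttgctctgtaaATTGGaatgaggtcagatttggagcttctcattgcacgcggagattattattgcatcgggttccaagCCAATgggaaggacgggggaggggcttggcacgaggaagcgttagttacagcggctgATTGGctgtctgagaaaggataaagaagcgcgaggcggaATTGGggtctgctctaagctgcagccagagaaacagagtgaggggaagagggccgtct
The Klf6 window held 4 CCAAT, 1 GGGCGG and 2 overlapping ACGTG matches, and the Sox4 window held 4 CCAAT matches and none of the other 2 motifs. The Pax8 window held 1 CCAAT and 1 GGGCGG match, and the Cited2 window 2 GGGCGG and 2 overlapping ACGTG matches. Among all 32851 windows, CCAAT was found in 37.4%, GGGCGG in 35.7% and ACGTG in 19.6%. TGANTCA, the letters read by AP-1, was in 7.81% of all windows and in none of the 13 windows of the 8 genes, and TATAAA (13.6% of all windows) was in none of the 4 windows printed. The matches describe letters and not bound sites.

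Sox9 (chr11:112782224-112787760, plus strand, GRCm38) is the SOX factor of injured and regenerating tubule cells. Ctrl libraries 1, 2 and 3 held 0.251, 1.28 and 0.333 CPM, and Ctrl+I/R libraries 1, 2 and 4 held 13.8, 17.3 and 4.62 CPM. PT-KO libraries 1, 2 and 4 held 0.126, 0.215 and 0.491 CPM, and PT-KO+I/R libraries 2, 3 and 4 held 40.7, 57.4 and 39.7 CPM. All 6 I/R libraries lay above all 6 sham libraries, and the 3 PT-KO+I/R libraries lay above the 3 Ctrl+I/R libraries. The rise was 19.7-fold in control mice (log2 4.30, SE 0.69, adjusted p = 0.0120, edgeR quasi-likelihood test with Benjamini-Hochberg adjustment over all genes, as for every adjusted p below). In knockout mice it was 162-fold (log2 7.34, SE 0.30, adjusted p = 6.2e-08). Sox9 passed the filter on low counts in these 2 comparisons through the I/R libraries, since at most 1 sham library in each reached the minimum. PT-KO+I/R exceeded Ctrl+I/R by log2 1.94 (SE 0.40, adjusted p = 0.0058), a call that stood in all 6 fits without 1 library.

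In control mice the Sox9 call was lost without Ctrl library 1 (adjusted p = 0.0551), and in knockout mice it stood in 6 of 6 fits. Over the fits without 1 library the rise was log2 3.91 to 5.35 in control mice and 7.02 to 7.98 in knockout mice. The difference of the 2 responses was log2 3.03 (SE 1.01, adjusted p = 0.0388), and it was called in 6 of the 12 fits without 1 library. It was not called without Ctrl 2, Ctrl+I/R 1, PT-KO 1, PT-KO 2, PT-KO+I/R 3 or PT-KO+I/R 4, where the adjusted p reached 0.222. The difference ranged from log2 2.01 to 3.68 over the 12 fits. With a term for the Xist-positive libraries it was log2 2.20 (adjusted p = 0.378). The Sox9 counts in sham libraries were only 2 to 21, a further limit whose part in this spread was not tested.

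Sox4 (chr13:28948919-28953713, minus strand) is a SOXC factor of progenitor cells and, like Sox11, has a single exon. It read 22.2, 23.6 and 19.0 CPM in Ctrl and 49.4, 78.1 and 33.3 CPM in Ctrl+I/R. PT-KO libraries read 18.3, 13.0 and 17.1 CPM, and PT-KO+I/R libraries 43.0, 51.1 and 57.6 CPM. The I/R libraries lay above the sham libraries in both genotypes, and the 2 I/R groups overlapped. Sox4 rose by log2 1.31 (SE 0.28, adjusted p = 0.0233) in control mice and by log2 1.65 (SE 0.15, adjusted p = 8.9e-06) in knockout mice. The control call was lost without Ctrl 1, 2 or 3 or Ctrl+I/R 1, with an adjusted p of up to 0.0816. The difference of PT-KO+I/R from Ctrl+I/R was log2 -0.08 (95% interval -0.71 to 0.54, adjusted p = 0.820), and without Ctrl+I/R 2 it was 0.27. The lincRNA gene Gm26735 on the opposite strand shares 2616 exon bases with Sox4, and no source used here says whether the counting used strand.

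Sox11 (chr12:27334264-27342574, minus strand), the other SOXC gene, was near the limit of detection. It had 16, 9 and 8 counts in Ctrl, 4, 3 and 6 in PT-KO, 23, 29 and 6 in Ctrl+I/R and 2, 17 and 18 in PT-KO+I/R. The I/R groups overlapped each other and the sham groups. The difference of Ctrl+I/R from Ctrl was log2 0.71 (95% interval -0.51 to 1.93, adjusted p = 0.354), and that of PT-KO+I/R from Ctrl+I/R was log2 -0.45 (-1.94 to 1.04, adjusted p = 0.592). Against PT-KO the gene did not pass the filter. Without PT-KO+I/R 2, the library with 2 counts, it passed the filter through the other PT-KO+I/R libraries and was called (log2 1.85, adjusted p = 0.0103), so its entry into that fit depended on its level there.

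Pax8 and Pax2 encode paired-box factors of the renal epithelial lineage, which act in part interchangeably in the embryo. Pax8 (chr2:24420560-24475599, minus strand) read 50.3, 56.5 and 67.4 CPM in Ctrl and 79.5, 96.5 and 71.8 CPM in Ctrl+I/R. It read 61.3, 64.5 and 64.1 CPM in PT-KO and 189, 192 and 243 CPM in PT-KO+I/R. The 3 PT-KO+I/R libraries stood far above the other 9, the lowest at 189 CPM against 96.5 CPM in the highest Ctrl+I/R library. With I/R, Pax8 of knockout mice was 3.27-fold higher (log2 1.71, SE 0.11, adjusted p = 7.9e-07), and it was 2.51-fold above that of injured control mice (log2 1.33, SE 0.15, adjusted p = 5.5e-04). In control mice the I/R difference was log2 0.51 (SE 0.15, adjusted p = 0.0532), with no overlap of the groups. That value passed the threshold with DESeq2 (adjusted p = 0.0287), in the fit to all 12 libraries (0.0182), without the filter (0.0358), with total count scaling (0.0246) and without Ctrl 3 or Ctrl+I/R 4. With the sex term the difference was log2 0.29 (adjusted p = 0.305). The adjusted p ranged from 0.0357 to 0.151 over the fits without 1 library. The I/R response was larger in knockout mice by log2 1.21 (SE 0.20, adjusted p = 0.0011), called in 12 of 12 fits without 1 library.

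The Gm13415 gene on the opposite strand shares 367 exon bases with Pax8, and it had 0 to 5 counts in all libraries except 1 PT-KO+I/R library, which had 49. Pax2 (chr19:44756045-44837871, plus strand) moved little. It read 22.5, 20.4 and 15.4 CPM in Ctrl, 21.8, 17.9 and 21.8 in PT-KO, 16.5, 17.6 and 17.9 in Ctrl+I/R and 16.9, 13.5 and 15.3 in PT-KO+I/R. Among the 4 comparisons, the groups were separate only in I/R against sham knockout mice. The fall there was log2 -0.44 (SE 0.14, adjusted p = 0.0162), and it was not called without PT-KO 1, PT-KO 4 or PT-KO+I/R 3 (adjusted p up to 0.0711). Pax2 was not called in control mice (log2 -0.16, adjusted p = 0.469) or between the injured groups (log2 -0.19, adjusted p = 0.252), where total count scaling gave -0.40 (adjusted p = 0.0419).

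The ratio of Pax8 to Pax2, each per kb of exon, needs no scaling between libraries. It was 1.99, 2.47 and 3.91 in Ctrl, 2.50, 3.22 and 2.62 in PT-KO, 4.30, 4.89 and 3.58 in Ctrl+I/R and 9.96, 12.7 and 14.2 in PT-KO+I/R. All PT-KO+I/R libraries lay above the other 9, while Ctrl+I/R overlapped Ctrl. The mean ratio was 12.3 ± 2.13 in PT-KO+I/R against 2.78 ± 0.383 in PT-KO and 4.26 ± 0.658 in Ctrl+I/R (SD, n = 3). Both differences had an exact two-sided permutation p of 0.1, the smallest that 3 against 3 libraries allow, so the design cannot reach 0.05 (0.2 after adjustment over 4 comparisons).

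**Figure D2:**
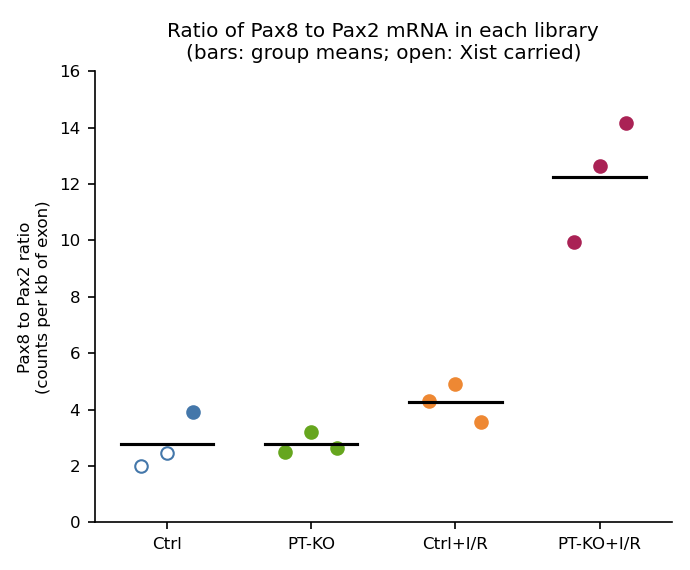
Ratio of Pax8 to Pax2 counts, each divided by the kb of exon of its gene, in each library (linear axis from 0, horizontal bars for the mean of 3 libraries, open circles for Xist-positive libraries). The 3 PT-KO+I/R libraries sit between 9.96 and 14.2, above the 1.99 to 4.89 of the other 9 libraries.

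Klf6 (chr13:5861482-5870394, plus strand) had the highest level per length of the 10 genes after I/R. It read 43.4, 45.2 and 32.2 CPM in Ctrl and 38.2, 30.7 and 34.1 CPM in PT-KO. After I/R the values were 148, 287 and 73.1 CPM in control mice and 325, 413 and 508 CPM in knockout mice. The I/R libraries lay above all sham libraries and the PT-KO+I/R libraries above the Ctrl+I/R libraries, although Ctrl+I/R 2 came close. Klf6 rose 4.21-fold in control mice (log2 2.07, SE 0.44, adjusted p = 0.0233) and 12.05-fold in knockout mice (log2 3.59, SE 0.17, adjusted p = 1.2e-07). The control call was lost without Ctrl 1, 2 or 3 or Ctrl+I/R 1 (adjusted p up to 0.0818), while the knockout call stood in 6 of 6 fits. Without 1 library the control rise was log2 1.48 to 2.43.

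PT-KO+I/R exceeded Ctrl+I/R for Klf6 by log2 1.30 (SE 0.43, adjusted p = 0.0370). That call was lost with DESeq2 (adjusted p = 0.0535), with total count scaling (0.0712) and without Ctrl+I/R 1, PT-KO+I/R 3 or PT-KO+I/R 4 (up to 0.118). The difference of the Klf6 responses, log2 1.52 (SE 0.51, adjusted p = 0.0406), was called in 4 of 12 fits without 1 library, namely without Ctrl 3, Ctrl+I/R 2, Ctrl+I/R 4 or PT-KO+I/R 2. It was also lost with the sex term (log2 1.20, adjusted p = 0.185) and with total count scaling (log2 1.43, adjusted p = 0.0611). Klf6 is known from the injured proximal tubule as a repressor of branched-chain amino acid breakdown, and the genes of that pathway are given further below.

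Runx1 (chr16:92601466-92826149, minus strand) is the longest of the 10 genes, at 224.7 kb. It read 1.36, 1.53 and 1.11 CPM in Ctrl and 1.33, 0.538 and 1.23 CPM in PT-KO. After I/R the values were 7.90, 16.1 and 2.72 CPM in control mice and 12.6, 23.2 and 24.7 CPM in knockout mice. Sham and I/R libraries did not overlap in either genotype, and Ctrl+I/R 2 lay within the range of PT-KO+I/R. Runx1 rose 6.71-fold in control mice (log2 2.75, SE 0.60, adjusted p = 0.0248) and 19.8-fold in knockout mice (log2 4.31, SE 0.35, adjusted p = 3.6e-06). The control call was lost without Ctrl 1, 2 or 3 or Ctrl+I/R 1 (adjusted p up to 0.0895) and, narrowly, with the sex term (0.0512). Without 1 library the control rise was log2 2.03 to 3.17. Between injured groups the difference of log2 1.18 (95% interval -0.04 to 2.40, adjusted p = 0.1005) was not called, but it was called without the filter (log2 1.16, adjusted p = 0.0446) and without Ctrl+I/R 2 (log2 1.88, adjusted p = 0.00997). Leaving out the same library also brought the difference of the responses, log2 1.56 (SE 0.80, adjusted p = 0.158), under the threshold (adjusted p = 0.0196). Gm26626 on the opposite strand shares 106 exon bases with Runx1 and had 4 to 14 counts in PT-KO+I/R and at most 1 in the other libraries.

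Runx1 is also expressed in leukocytes, so the myeloid and lymphocyte markers are given beside it. Of 13 myeloid genes, 12 were tested in Ctrl+I/R against Ctrl and 11 were called higher, with a summed level of 101 to 119 CPM in Ctrl and 187 to 318 CPM in Ctrl+I/R (4 to 11 called without 1 library, fewest without Ctrl 2, and 11.4% of all genes higher). Injured knockout mice had 112 to 138 CPM, against 103 to 110 CPM in PT-KO, and 5 of 12 were higher and 6 lower (32.9% and 32.7% of all genes). Ly6g was at 0 in both sham groups. The group with the highest mean Runx1 thus had a lower myeloid sum than Ctrl+I/R, with 7 of 12 myeloid genes called lower and 4 higher between the injured groups (24.4% and 22.5% of all genes, and 2 higher without PT-KO+I/R 4). The 4 higher included the neutrophil genes Retnlg (12.8 ± 2.91 against 1.25 ± 0.63 CPM) and S100a9 (30.6 ± 8.11 against 9.59 ± 5.57 CPM). The lower ones included the macrophage genes Adgre1 (0.384 ± 0.169 against 7.98 ± 2.08 CPM) and Lyz2 (4.67 ± 1.25 against 64.4 ± 30.9 CPM, SD, n = 3). The 9 lymphocyte genes summed to 4.88 to 11.4 CPM in Ctrl, 5.49 to 6.38 in PT-KO, 6.39 to 17.8 in Ctrl+I/R and 0.685 to 0.967 in PT-KO+I/R. The part of leukocytes in the Runx1 values was not tested. In bulk tissue, more cells of a type and more RNA per cell cannot be told apart, for this and every gene here.

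**Figure D3:**
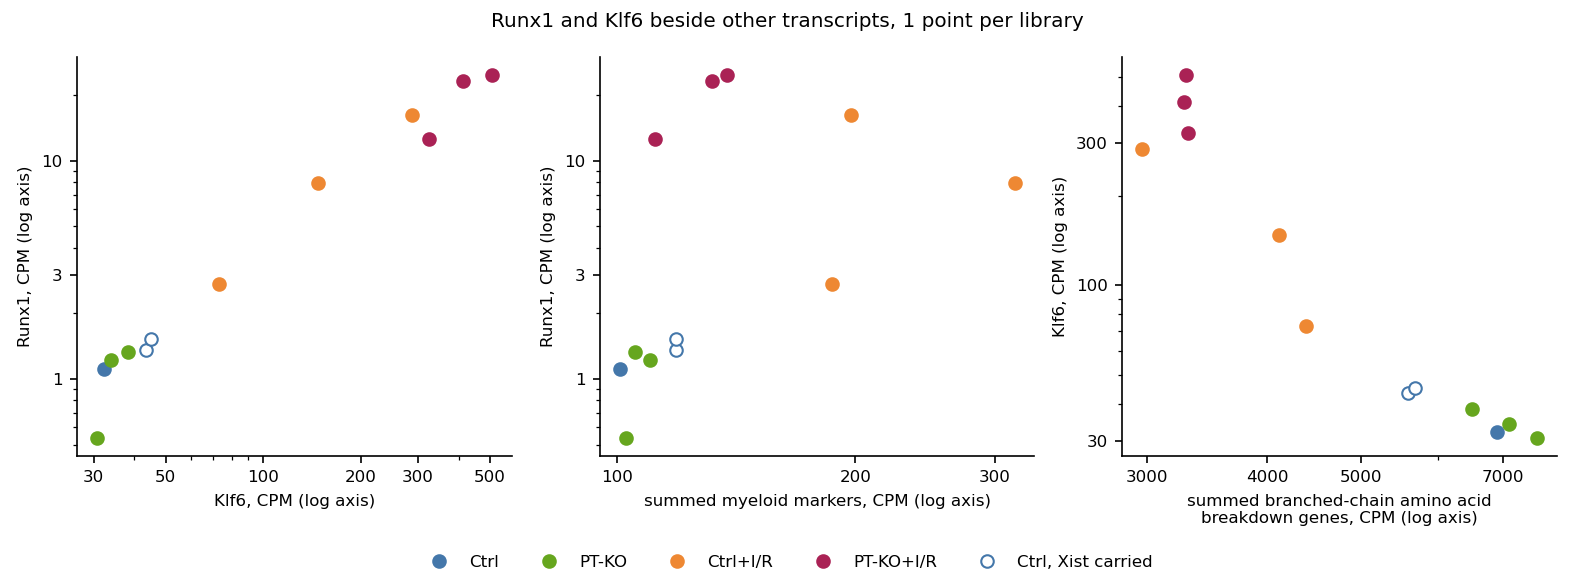
Runx1 against Klf6, Runx1 against the summed 13 myeloid markers, and Klf6 against the summed 25 branched-chain amino acid genes, in CPM on log axes, with 1 point per library colored by group. Runx1 and Klf6 are high in the same libraries, the myeloid sum is highest in Ctrl+I/R rather than in PT-KO+I/R, and the amino acid sum is at most 4386 CPM in the I/R libraries and at least 5584 CPM in the sham libraries.

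Cited2 (chr10:17723218-17725674, plus strand) encodes a coactivator that competes with HIF-1 alpha for CBP and p300. It read 63.4, 64.7 and 53.0 CPM in Ctrl and 47.9, 48.6 and 35.2 CPM in Ctrl+I/R. It read 56.9, 43.1 and 45.5 CPM in PT-KO and 71.5, 65.5 and 82.4 CPM in PT-KO+I/R. The I/R libraries lay below the sham libraries in control mice and above them in knockout mice, with no overlap in either. The control difference was log2 -0.45 (SE 0.15, adjusted p = 0.0704) and did not pass the threshold, except in the fit to all 12 libraries (adjusted p = 0.0356). The rise in knockout mice was log2 0.59 (SE 0.13, adjusted p = 0.0023), and PT-KO+I/R exceeded Ctrl+I/R by log2 0.73 (SE 0.15, adjusted p = 0.0056). The responses differed by log2 1.05 (SE 0.21, adjusted p = 0.0033). These last 3 calls stood in all fits without 1 library, 6 of 6, 6 of 6 and 12 of 12. With the replicate number as a block, the difference between the injured groups was not called (log2 0.89, adjusted p = 0.0597).

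Cited1 (chrX:102247381-102252181, minus strand), the coactivator of the nephron progenitor, was counted mainly in 2 libraries. It had 21, 30 and 0 counts in Ctrl, 0, 0 and 1 in PT-KO, 1, 0 and 0 in Ctrl+I/R and 1, 2 and 4 in PT-KO+I/R. The libraries with 21 and 30 counts were Ctrl 1 and 2, the 2 that carried Xist, and Ctrl 3 had none. It did not pass the filter in any comparison. DESeq2 called it lower after I/R in control mice (adjusted p = 0.0094), and so did edgeR without the filter (0.0221) and without Ctrl 3 (0.0145). Without Ctrl 3, where only Xist-positive controls remain, edgeR also called it lower in PT-KO (adjusted p = 0.0033). The difference of the responses was called by DESeq2 (adjusted p = 0.0066), by edgeR without the filter (0.0091) and in 7 of 12 fits without 1 library. Genotype, injury and sex cannot be told apart for this gene.

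Foxj1 (chr11:116330704-116335399, minus strand), the master factor of motile cilia, was high in 1 group only. It had 6, 6 and 0 counts in Ctrl, 2, 1 and 3 in PT-KO, 45, 72 and 13 in Ctrl+I/R and 0, 6 and 10 in PT-KO+I/R. In CPM, Ctrl+I/R read 2.01, 3.76 and 0.822, and no other library exceeded 0.645. The 3 Ctrl+I/R libraries lay above the other 9. Foxj1 rose by log2 3.29 in control mice (SE 0.83, adjusted p = 0.0356), and the difference of PT-KO+I/R from Ctrl+I/R was log2 -2.77 (SE 0.81, adjusted p = 0.0239). In both it passed the filter through Ctrl+I/R. With the sex term the control rise was fitted as log2 8.29 (adjusted p = 0.0301), but the Xist-negative control library had 0 counts, so no size is read from it. The first call stood only without Ctrl+I/R 4 (adjusted p up to 0.104 in the other 5 fits). The second was lost without Ctrl+I/R 1, Ctrl+I/R 2 or PT-KO+I/R 3 (up to 0.0923). Without 1 library the first value was log2 2.69 to 3.78 and the second -3.68 to -2.17. The responses did not differ past the threshold (log2 -1.91, 95% interval -5.30 to 1.47, adjusted p = 0.373), and Foxj1 against PT-KO was not tested, with 3 counts or fewer in each PT-KO library.

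**Figure D4:**
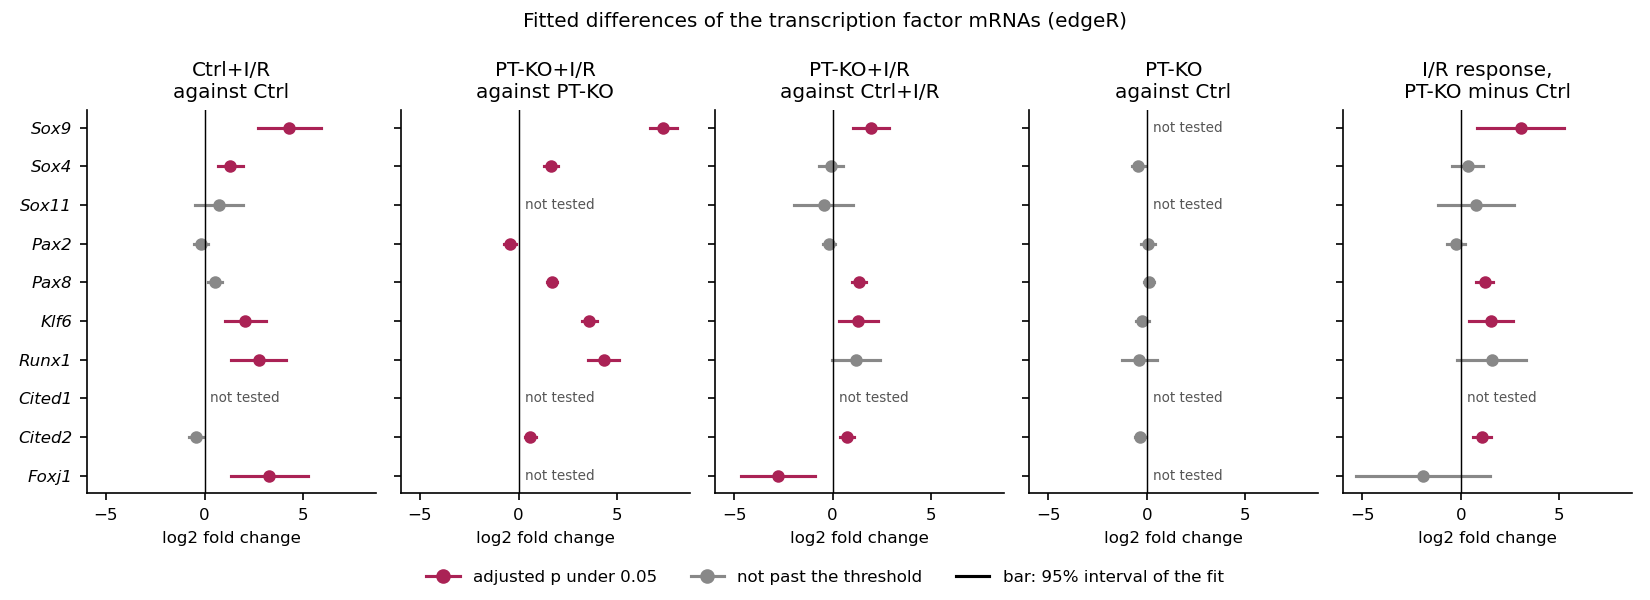
Fitted log2 fold changes of the 10 genes in the 4 comparisons and of the difference between the 2 I/R responses, with 95% intervals from the edgeR fit (red, adjusted p under 0.05). In knockout mice the 6 rises after I/R and the fall of Pax2 have short intervals, whereas the intervals in control mice are wider, and Sox9, Pax8, Klf6 and Cited2 lie above 0 in the last panel.

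By comparison, 9 of the 10 genes were tested in Ctrl+I/R against Ctrl and 5 were called, all higher. Of all 15567 genes tested there, 19.4% were called, 11.4% higher and 7.97% lower. The groups did not overlap for 7 of the 9, against 43.7% of all genes. Without Ctrl 1 the 10 genes gave 0 calls, when 379 of all genes were called. In I/R against sham knockout mice, all 7 genes tested were called, 6 higher and 1 lower, where 65.5% of all 15155 genes were called (32.9% higher, 32.7% lower), and 70.8% of all genes did not overlap. The median was log2 1.31 over the 9 genes in control mice and 1.71 over the 7 in knockout mice, against -0.01 and 0.01 over all genes. Some of the genes entered these counts only through the group in which they were high, as given for Sox9 and Foxj1. The same held for genes of the lists below that were near 0 in 1 group, such as Wnt11 and Dnah5.

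Between the injured groups 9 were tested and 5 called, 4 higher and 1 lower, where 46.9% of all 15281 genes were called (22.5% higher, 24.4% lower). The share of the 10 genes called is therefore close to that of all genes. Of the 9 tested, 5 did not overlap between these groups, against 58.7% of all genes. The difference of the 2 I/R responses was tested for 9 and called for 4, all larger in knockout mice, where 30.6% of all 16168 genes were called (14.3% higher, 16.4% lower). DESeq2 called 5, with Cited1 among them. With the sex term 2 of the 4 stood, Pax8 and Cited2. These comparisons share libraries, so their calls are not independent of each other.

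In PT-KO against Ctrl 6 genes were tested and none was called by edgeR, where 0.0% of all 15291 genes were called. At an unadjusted p under 0.05 the count was 2 of the 6, Sox4 and Cited2, and 2573 of all genes. DESeq2 called 0 of the 10 and 440 of all genes. The differences were log2 -0.42 for Sox4 (95% interval -0.77 to -0.07, adjusted p = 0.250) and -0.32 for Cited2 (-0.62 to -0.02, adjusted p = 0.275). For Pax8 it was 0.12 (-0.13 to 0.38, adjusted p = 0.592), and for Klf6 -0.23 (-0.57 to 0.10, adjusted p = 0.439). Sox4 was the 1 of the 6 genes tested whose groups did not overlap, against 21.0% of all genes tested. The untested Sox11 did not overlap either, with PT-KO below Ctrl for both genes.

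Among 39 relatives of the 10 genes (other SOX, PAX, KLF, RUNX, CITED and FOXJ genes and Cbfb), the total shares called were near those of all genes. In Ctrl+I/R against Ctrl 3 of 28 were called higher and 3 lower (19.4% of all genes called, 11.4% higher and 7.97% lower), with a median of log2 -0.13 and no calls without Ctrl 1. Klf5, an epithelial injury factor, read 5.54 ± 3.69 against 1.59 ± 0.24 CPM (adjusted p = 0.0418, lost in 5 of 6 fits without 1 library). Cbfb, the partner subunit of RUNX proteins, read 45.9 ± 7.20 against 24.7 ± 3.12 CPM (adjusted p = 0.0120, lost without Ctrl 1 or Ctrl 2). After I/R in knockout mice 11 of 27 were higher and 6 lower (65.5% of all genes called), among them Klf5 (11.7 ± 4.06 against 2.10 ± 0.82 CPM) and Klf4 (22.7 ± 0.72 against 6.78 ± 1.07 CPM). Klf12 fell there from 34.8 ± 1.56 to 11.4 ± 1.43 CPM (SD, n = 3). Between the injured groups, 11 of 28 were higher with the knockout and 2 lower, where 22.5% of all genes were higher and 24.4% lower. Klf11 (46.1 ± 5.18 against 16.3 ± 5.03 CPM) and Klf13 (120 ± 6.21 against 48.5 ± 5.98 CPM) differed most, and both were called in every fit without 1 library, also for the difference of the responses. None was called in PT-KO against Ctrl by edgeR or DESeq2.

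The 48 other genes of renal development had more genes called lower than higher after I/R. In Ctrl+I/R against Ctrl 1 of 41 was called higher and 9 lower (11.4% and 7.97% of all genes, median log2 -0.26, 1 lower without Ctrl 1 and 4 with the sex term), and in knockout mice 3 of 41 were higher and 21 lower (32.9% and 32.7% of all genes, median -0.50). Wnt11, a ligand of the ureteric tip, fell from 1.74 ± 0.41 to 0.242 ± 0.064 CPM in control mice and from 1.52 ± 0.40 to 0.167 ± 0.072 CPM in knockout mice. Wnt9b, the inducing signal of the nephron, fell from 4.18 ± 1.55 to 0.438 ± 0.292 CPM in knockout mice, and its fall in control mice (adjusted p = 0.0297) was lost in 4 of 6 fits without 1 library. Spry1, an inhibitor of growth factor signaling, rose in knockout mice from 10.95 ± 0.973 to 29.3 ± 3.75 CPM and was also higher than in Ctrl+I/R (16.4 ± 4.10 CPM, SD, n = 3). Six2, the progenitor factor, was at 0 counts in both sham groups and in Ctrl+I/R. Between the injured groups 2 of 40 were higher and 10 lower with the knockout, where 22.5% of all genes were higher and 24.4% lower, so the lower share was close to that of all genes and the higher share below it. The 10 became 6 without PT-KO+I/R 4 and 16 with total count scaling.

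Genes of motile cilia, a list of FOXJ1 targets together with regulators such as Mcidas, were not called higher with Foxj1. Of the 43 with a row, 16 passed the filter in Ctrl+I/R against Ctrl, 0 were called higher by edgeR and 4 lower, against 11.4% and 7.97% of all genes (DESeq2 also called 0 higher, and no fit without 1 library called more than 1 higher). Their summed level was 83.7 to 113 CPM in Ctrl and 79.1 to 82.9 CPM in Ctrl+I/R. Of the 4 lower, none was called without Ctrl 1. Mcidas, which acts upstream of Foxj1 in multiciliated cells, was at 0 in Ctrl, PT-KO and PT-KO+I/R and was counted only in Ctrl+I/R. Injured knockout mice had a sum of 52.7 to 55.4 CPM, with 8 of 16 lower than in injured control mice and 0 higher (DESeq2 10 and 0), against 24.4% and 22.5% of all genes. Cfap44 (0.059 ± 0.103 against 1.99 ± 0.83 CPM) and Dnah5 (0.130 ± 0.041 against 1.25 ± 0.67 CPM) differed most there, each called in 6 of 6 fits without 1 library. Both had at most 4 counts in any PT-KO+I/R library and passed the filter through Ctrl+I/R. Their entry, and thus part of the count of 8 lower, depended on the level in that group.

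Genes of branched-chain amino acid breakdown, a pathway of the proximal tubule among other cells, were given beside Klf6. In Ctrl+I/R against Ctrl 17 of 25 were called lower and 0 higher (median log2 -0.66, 7.97% of all genes lower), a count that was 0 without Ctrl 1 and 17 with the sex term. In knockout mice 24 of 25 were lower and 0 higher (median -1.12, 24 to 25 without 1 library, 32.7% of all genes lower). Bcat1, the cytosolic transaminase, fell from 101 ± 2.27 to 17.0 ± 9.86 CPM, and Bckdhb, a subunit of the branched-chain dehydrogenase, fell from 30.6 ± 3.796 to 8.78 ± 1.38 CPM (SD, n = 3). Between the injured groups 9 were lower with the knockout and 1 higher, where 24.4% and 22.5% of all genes were, with 3 to 18 lower without 1 library (fewest without Ctrl+I/R 1) and 15 lower with total count scaling. The summed level was 2969 to 4386 CPM in Ctrl+I/R and 3280 to 3310 CPM in PT-KO+I/R, which overlapped, whereas Klf6 did not. The difference of the responses was called for 7 of 25, all lower (16.4% of all genes lower), for 2 to 14 without 1 library (fewest without Ctrl 1) and for 0 with the sex term. Proximal tubule markers fell in the same libraries, with 12 of 12 called lower in knockout mice (median log2 -2.20), and their summed level went from 38944 to 49877 CPM in PT-KO to 19950 to 21044 CPM in PT-KO+I/R. In control mice that sum was 25162 to 41590 CPM in sham and 14809 to 23670 CPM in I/R libraries. A single marker, Kap, held much of the I/R sums, with 14955 ± 860 CPM in PT-KO+I/R and 9995 ± 1438 in Ctrl+I/R (SD, n = 3). It was the 1 marker called higher between the injured groups (adjusted p = 0.0368, kept in 2 of 6 fits without 1 library). Another 6 were called lower, which the sums do not show. The part of proximal tubule loss in the amino acid genes, and any part of Klf6, was not tested.

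The HIF pathway list was given beside Cited2. Of 26 genes 4 rose and 3 fell after I/R in control mice (3 and 0 with the sex term, 4 and 0 with total count scaling, 1 higher without Ctrl 2 and 0 lower without Ctrl 1), and 10 rose and 9 fell in knockout mice. Between the injured groups, 9 were higher and 5 lower with the knockout (6 and 3 without Ctrl+I/R 1). Over all genes 19.4%, 65.5% and 46.9% were called in these 3 comparisons, near the shares of this list. Hk2, a hexokinase, rose in knockout mice from 1.13 ± 0.26 to 11.8 ± 4.94 CPM. Vegfa, a classical HIF target, fell there from 208 ± 7.56 to 85.3 ± 10.2 CPM (SD, n = 3). Ndrg1, a stress-induced gene, read 5896 ± 368 CPM in PT-KO+I/R against 1795 ± 413 in Ctrl+I/R, and P4ha1, a collagen hydroxylase subunit, read 22.4 ± 3.18 against 58.7 ± 12.6 CPM.

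Injury and dedifferentiation markers of the tubule rose with Sox9 in both genotypes. In Ctrl+I/R against Ctrl 18 of 22 were higher (10 to 18 without 1 library, fewest without Ctrl 1, and 11.4% of all genes) and in knockout mice 20 were higher (32.9% of all genes) and 1, Sema5a, lower. Havcr1, the injury marker KIM-1, rose from 1.31 ± 0.34 to 3141 ± 838 CPM in knockout mice and reached 1092 ± 903 CPM in Ctrl+I/R (SD, n = 3). With the knockout, 7 of 22 were higher and 4 lower among injured mice (4 to 11 higher without 1 library, fewest without Ctrl+I/R 1), near the 46.9% of all genes called. Krt20 stood at 1052 ± 207 against 32.4 ± 22.6 CPM. Vcam1, a marker of tubule cells that fail to repair, was lower there, at 11.04 ± 1.63 against 28.1 ± 11.1 CPM. Havcr1 differed in response by log2 2.55 (adjusted p = 0.0368), called in 5 of 12 fits without 1 library.

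Proliferation markers did not follow Sox9, Klf6 or Pax8 across the injured groups. All 10 were called higher after I/R in control mice (summed level 283 to 351 against 93.2 to 97.3 CPM, 6 with the sex term), and all 10 were lower in injured knockout than in injured control mice. Of all genes 11.4% were higher in the first and 24.4% lower in the other comparison. The PT-KO+I/R sum was 98.5 to 110 CPM, against 71.9 to 101 CPM in PT-KO, with 2 called higher and 2 lower (32.9% and 32.7% of all genes). Mki67 read 2.85 ± 0.88 CPM in PT-KO+I/R and 38.1 ± 3.94 in Ctrl+I/R (SD, n = 3). Thus the PT-KO+I/R libraries combined the highest Sox9, Pax8 and Klf6 with a proliferation sum near that of the sham groups.

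The markers of other cells moved as well. Of 12 proximal tubule genes 4 fell in control mice and 12 in knockout mice after I/R, and 6 were lower and 1 higher between the injured groups. In the same 3 comparisons, thick limb and distal tubule genes were called lower for 3, 6 and 4 of 7, collecting duct genes for 2, 10 and 4 of 11, and podocyte genes for 3, 4 and 4 of 7. Trpm6 of the distal tubule was higher in the last 2. Without Ctrl 1 the proximal tubule, collecting duct and podocyte lists had 0 genes called lower in control mice and the thick limb list 1, while the highest counts in such fits were 9, 8, 4 and 5. With the sex term the proximal tubule, thick limb, collecting duct and podocyte counts in control mice were 5, 2, 2 and 0. With DESeq2 they were 7, 4, 6 and 3. Over all genes 7.97%, 32.7% and 24.4% were lower in the 3 comparisons and 11.4%, 32.9% and 22.5% higher. Between the injured groups the thick limb count was 2 without PT-KO+I/R 3, and the collecting duct count reached 7 without 1 library. Fibroblast and pericyte genes were higher for 6 of 8 in control mice (summed level 691 to 827 CPM in Ctrl+I/R and 221 to 286 in Ctrl) and for 3 of 8 in knockout mice (210 to 351 CPM in PT-KO+I/R), and 4 were lower in injured knockout than in injured control mice. Of 8 endothelial genes Kdr was lower in control mice, a call kept in 1 of 6 fits without 1 library and lost with the sex term and total count scaling, and 4 were higher and 2 lower in each of the other 2 comparisons (1 higher between the injured groups with total count scaling). The urothelial list summed to 2.11 to 19.8 CPM over all libraries, with Krt5 called higher in Ctrl+I/R (2.57 ± 0.97 against 0.195 ± 0.136 CPM, SD, n = 3, lost with the sex term at adjusted p = 0.0542). Psca was called lower after I/R in knockout mice, and lost without PT-KO 1, PT-KO 4, PT-KO+I/R 3 or PT-KO+I/R 4. Pax8 and Pax2 are made by most of these tubule segments, and the part of segment loss in their values was not tested.

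Likeness of pattern was measured by Pearson's r of log2(CPM + 1) over the 12 libraries, among 14337 other genes with a mean of at least 1 CPM. The libraries share 4 groups, so r mostly describes group means, and it is given without a test. Runx1 was most like Klf6 (r = 0.994), then Samd4 and Pxdc1. Klf6 was most like Actn1 (r = 0.997), then Mvp and Anxa2. Genes close to Sox9 included Itga5 and Tsr1. Pax8 was most like Cct2 (r = 0.994), Dnajc5 and Surf4, and Sox4 most like Ajuba (r = 0.989), Sept11 and Dusp8. For Cited2 the closest gene was Tgfbr3l (r = 0.929) and for Pax2 it was D030045P18Rik (r = 0.903), both looser than for the other 5. Sox11, Cited1 and Foxj1 had means under 1 CPM and were not compared.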

How the data were processed

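The authors extracted RNA from kidney cortex with TRIzol or an RNeasy kit, sequenced it on an Illumina HiSeq instrument and deposited 1 table of raw read counts per Ensembl gene. The submitters' processing notes name HISAT2 2.0.4 and the build mm10. The count program, annotation and strand setting are not given in the sources used here. The counts were neither normalized nor filtered in the deposited table. Groups came from the sample labels. 1 control column is numbered 3 whereas the control titles are numbered 1, 2 and 4, so it was assigned to Ctrl by its name only. No label says that the libraries of a group came from separate mice, so p-values measure only the spread between these libraries.

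Symbols and coordinates were taken from GENCODE M21 (GRCm38) and promoter windows from RefSeq. Genes were filtered with filterByExpr (minimum count 10), scaled by TMM and fitted in edgeR 4.0.16 (R 4.3.3, glmQLFit and glmQLFTest) to the 6 libraries a comparison needs and to all 12 for the difference of the I/R responses (PT-KO minus Ctrl). Adjusted p-values are Benjamini-Hochberg values over all genes tested, and under 0.05 a gene counted as called. CPM and RPKM were computed from the counts, RPKM with the exon length of each gene. The alternatives were DESeq2 1.42.0, total count scaling, no filter, 1 fit to all 12 libraries with and without a term for libraries with over 1000 Xist counts, the replicate number as a block, and leaving out each library. The tests were checked on simulated data with known changes. The Pax8 to Pax2 ratio was tested by an exact two-sided permutation test in SciPy 1.17.1.

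The 10 genes and the gene lists were chosen from general knowledge with earlier results of these data known, so they are descriptions and carry no test of their own. The list counts under the alternatives were added after seeing the data. All 10 genes were named in every comparison, from each other list up to 2 called genes with the largest rise and up to 2 with the largest fall, and from the likeness ranking the first 3. Not all of these are printed, and some items are not reported here. Ly6g, Mcidas and Six2 were named because they were at 0.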

Additional observations from a re-analysis of the deposited data

Results flagged for a closer look

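For 4 of the genes the I/R response differed between genotypes in a test of the difference itself (edgeR, all 12 libraries). The response in PT-KO exceeded that in Ctrl by log2 3.03 for Sox9 (adjusted p = 0.0388), 1.21 for Pax8 (adjusted p = 0.0011), 1.05 for Cited2 (adjusted p = 0.0033) and 1.52 for Klf6 (adjusted p = 0.0406). Pax8 and Cited2 were called in 12 of 12 fits without 1 library and with the sex term, Sox9 in 6 of 12 and Klf6 in 4 of 12, neither of them with the sex term. Groups of 3 libraries are too small to look for single libraries that stand apart.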

How the results depend on the processing

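Of the fitted fold changes of the 10 genes, 38 of 40 kept their direction and side of the threshold with DESeq2, 29 of 31 in 1 fit to all 12 libraries, 34 of 40 with the sex term, 38 of 40 without the filter, 32 of 40 with the replicate block and 35 of 40 with total count scaling. Leaving out 1 library kept 246 of 294 values, 41 lost a call, 4 gained one and 3 changed sign. The count of all genes called in Ctrl+I/R against Ctrl was 4938 in the fit to 12 libraries and 379 to 4061 without 1 library, and that of the 10 genes 0 to 6. In PT-KO against Ctrl DESeq2 called 440 genes, no filter 388, total count scaling 1 and the block 1378. Without 1 library it was 0 to 1930 (0 to 1 of the 10). The 1930 came without Ctrl 3, where only Xist-positive controls remain. Between the injured groups the block left 1683 genes and 2 of the 10, with 4918 to 7509 and 3 to 5 without 1 library. For the difference of responses the sex term left 3233 genes and 2 of the 10, and the block 3215 and 2, with 3622 to 5509 and 2 to 6 without 1 library. After I/R in knockout mice the ranges were 9111 to 10262 and 6 to 8. Same-numbered libraries had a median correlation of residuals of -0.031 over 12 pairs (-0.238 to 0.264). The pairs share libraries and no differently numbered pairs were set beside them, so whether the numbers pair the libraries was not settled. With the block, Cited2 (0.89, adjusted p = 0.0597), Foxj1 (-2.48, 0.255) and Klf6 (1.49, 0.157) were not called between the injured groups. Sox9 and Klf6 were not called for the difference of responses and Pax2 not in knockout mice, whereas Pax8 was called in control mice (0.0156). Ctrl 3 had a block of its own, so block fits with Ctrl took its level from Ctrl 1 and 2, which carried Xist. Group and sex cannot be told apart in those fits, Pax8 included. Between the injured groups, and in knockout mice, only numbers 2 and 4 occur in both groups, so the block values rest on these libraries. Signs changed for values that were not called: with the sex term, Klf6 (0.092) and Pax8 (-0.092) in PT-KO against Ctrl and Pax2 (0.17) in Ctrl+I/R against Ctrl, Pax2 in PT-KO against Ctrl with the block (-0.12), total counts (-0.055) and without Ctrl 3 (-0.069, range -0.069 to 0.19 without 1 library), and Sox4 between the injured groups without Ctrl+I/R 2 (0.27) or PT-KO+I/R 2 (0.032, range -0.34 to 0.27). Total count scaling moved the median of all genes to log2 0.11 in Ctrl+I/R against Ctrl, -0.21 between the injured groups, -0.14 in PT-KO against Ctrl and -0.10 for the difference of responses. It turned 1778 higher and 1241 lower into 2346 and 766 in the first, and 3444 and 3725 into 1978 and 5080 in the next. For the difference of responses 2305 and 2648 became 1591 and 2997. The causes were not tested. The number of libraries, and under about 20 counts the depth, limit Sox11, Cited1, Foxj1 and sham Sox9.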
